A study of Rattus norvegicus with 16 samples.

Results

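The core circadian clock genes of the rat kidney cortex were compared across 4 dietary groups. They were defined by role, with earlier results of these data known, as 10 genes. These were the activators Bmal1 (also written Arntl), Clock and Npas2 and the repressors Per1, Per2, Per3, Cry1, Cry2, Ciart and Nr1d2. Of these, 9 had a TranscriptClusterID, the gene-level unit of the array, under their symbol in the platform annotation, 1 each, out of 36685 TranscriptClusterIDs in all. Nr1d2 had none there and was not analysed here, which left 3 activators and 6 repressors. A slice of superficial cortex was taken from each of 16 rats (Sprague-Dawley, male, 7 weeks old), 4 per group and 1 Affymetrix array per rat, after 7 days on the diets. CNS rats (numbers 1 to 4) had normal-salt chow and tap water, FNS rats (5 to 8) the same chow and 20% fructose as fluid, CHS rats (9 to 12) high-salt chow with 4% NaCl and tap water, and FHS rats (13 to 16) high-salt chow and 20% fructose. All rats were of 1 sex and strain, lived in pairs on a light-dark cycle with free access to food and fluid, and received ketamine, xylazine and heparin before the kidneys were taken. The chows came from different makers and differed in composition beyond NaCl, so "base diet" below means the whole chow. The sources used here give no clock hour of collection for any rat, so an effect of the chow and a difference in hour between the chow groups cannot be told apart. Cages are not given either, and the p-values treat the rats as independent.

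In background, the mammalian clock is a loop of transcription and translation in nearly every cell. BMAL1 pairs with CLOCK or NPAS2 and activates genes that carry E-box sequences, among them the Per and Cry genes and Ciart, whose proteins then repress the pair. Nuclear receptors of the REV-ERB and ROR families act on Bmal1 itself through ROR elements, and proteins such as DBP and TEF act through D-boxes. In the kidney the loop is known for daily rhythms in filtration and in the tubular handling of sodium and water. Activator and repressor transcripts peak at different hours. The level in a single tissue sample therefore depends on the point in the cycle and on the strength of the rhythm, which it cannot tell apart.

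The sequences below mark letters that match elements of the loop in promoters of members of each direction of change. Shown are Bmal1 among the activators and Per2 and Ciart among the repressors, all members with a match. The stretches are RefSeq sequence on GRCr8, read 5′ to 3′ on the gene's strand, with motif matches in capitals. The Ciart stretch (chr2:186112247-186112356, minus strand) holds 3 E-boxes. The Per2 stretch (chr9:99497034-99497198, minus strand) holds a D-box and an E-prime-box, and the Bmal1 stretch (chr1:176766248-176766327, plus strand) the core of a ROR element.
Ciart: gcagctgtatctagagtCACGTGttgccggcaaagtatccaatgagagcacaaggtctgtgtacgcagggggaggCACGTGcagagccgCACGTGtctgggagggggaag
Per2: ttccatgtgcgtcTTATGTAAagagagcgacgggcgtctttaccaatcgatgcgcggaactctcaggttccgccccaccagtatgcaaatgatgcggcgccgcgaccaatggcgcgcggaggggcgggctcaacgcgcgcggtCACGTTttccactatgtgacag
Bmal1: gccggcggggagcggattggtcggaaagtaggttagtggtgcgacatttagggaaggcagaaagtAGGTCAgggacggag

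Motifs were searched on both strands from 250 bases before to 50 bases after each start, as CACGTG (E-box), CACGTT (E-prime-box), AGGTCA (ROR element core) and TTATGNAA (D-box). None of these motifs contains another. Of 33469 rat promoters of this length, 6.42% held CACGTG, 4.83% CACGTT, 16.2% AGGTCA and 3.66% TTATGNAA. Ciart held CACGTG at 93, 35 and 21 bases before its start, the only analysed member with that motif in the window. Per2 held CACGTT at 62 bases and TTATGTAA at 192 bases before its start, Cry2 an E-prime-box (AACGTG, the same motif on the other strand) at 212 bases, and Bmal1 AGGTCA at 15 bases. A promoter was available for 8 of the 9 analysed members, Cry1 being the exception. Clock, Npas2, Per1 and Per3 held none of these motifs in the window. The matches are descriptions of letters and were not tested for binding.

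Across base diets, the activators were low and most repressors high in the rats on the high-salt chow. With both drinks averaged, 8 of the 9 members passed the test (limma, Benjamini-Hochberg adjusted p under 0.05 over all 36685), 3 lower and 5 higher, against 13.3% of all TranscriptClusterIDs called (6.77% lower and 6.49% higher). All 3 activators fell. Of the 6 repressors, 5 rose, and Cry1 was not called. The median absolute difference was 0.93 on the log2 scale for the members and 0.14 for all TranscriptClusterIDs. In a bulk sample, fewer cells of a type and less RNA per cell cannot be told apart.

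Bmal1, which encodes the partner shared by CLOCK and NPAS2, had log2 values of 8.51, 8.16, 8.88 and 7.21 in the CNS rats and of 8.20, 6.95, 8.82 and 8.21 in the FNS rats. It had values of 5.95, 6.26, 5.84 and 5.72 in the CHS rats and of 5.21, 5.59, 5.40 and 5.40 in the FHS rats. Every normal-salt rat was above every high-salt rat, with 0.69 between the closest rats, and rats 4 and 6 were the lowest of the normal-salt rats. The base diet difference was −2.45 (SE 0.25, limma adjusted p = 2.84e-05), which is 5.45-fold lower on the high-salt chow.

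Npas2, which encodes an alternative partner of BMAL1, had log2 values of 8.52, 8.16, 8.71 and 7.73 in CNS, and of 8.63, 7.65, 8.64 and 8.56 in FNS. In CHS it had 6.87, 7.08, 6.62 and 6.58, and in FHS 6.69, 6.27, 6.27 and 6.34. The base diets again did not overlap, and rats 4 and 6 were again the lowest on normal salt. The difference was −1.73 (SE 0.17, limma adjusted p = 1.64e-05). Clock, which encodes the usual partner of BMAL1, had a smaller difference of −0.46 (SE 0.09, limma adjusted p = 0.00285). Its log2 values ran from 10.28 to 10.88 on normal salt (median 10.65) and from 9.88 to 10.43 on high salt (median 10.20), so the base diets overlapped.

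Among the repressors, Per1, the period gene that also responds quickly to hormones, had log2 values of 6.07, 7.28, 6.19 and 6.30 in CNS and of 5.73, 6.11, 5.87 and 5.88 in FNS. It had 8.06, 8.01, 7.84 and 8.02 in CHS and 8.25, 7.97, 7.88 and 7.89 in FHS. The base diets did not overlap, and rat 2 was the normal-salt rat closest to the high-salt values. The difference was 1.81 (SE 0.14, limma adjusted p = 3.77e-06), which is 3.51-fold higher on the high-salt chow.

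Ciart, which encodes a repressor of the CLOCK and BMAL1 pair, had log2 values of 4.17, 4.39, 4.57 and 4.74 in CNS and of 4.38, 5.24, 4.49 and 3.97 in FNS. In CHS the values were 5.91, 6.0, 5.98 and 6.21, and in FHS 7.39, 6.46, 7.05 and 6.69. The base diets did not overlap, and all FHS rats were above all CHS rats. The base diet difference was 1.97 (SE 0.17, limma adjusted p = 5.81e-06), a 3.91-fold higher level on the high-salt chow. Bmal1, Npas2, Per1 and Ciart were the 4 of 9 members whose base diets were fully apart, against 2.46% of all TranscriptClusterIDs.

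Per2 and Per3 encode further period proteins. Per2 had log2 values of 6.74, 7.03, 6.39 and 7.24 in CNS, of 6.80, 7.59, 7.02 and 6.75 in FNS, of 7.75, 7.91, 7.53 and 7.90 in CHS and of 7.95, 7.99, 7.99 and 8.01 in FHS. Only rat 6 of the normal-salt rats reached the lowest high-salt rat. The difference was 0.93 (SE 0.13, limma adjusted p = 0.000434). Per3 had 6.92, 7.15, 6.72 and 7.88 in CNS, 7.24, 8.13, 6.85 and 7.21 in FNS, 8.08, 7.92, 8.04 and 8.09 in CHS, and 8.31, 8.38, 8.32 and 8.41 in FHS. Rat 6 was above all CHS rats, rat 4 was just below them, and the other normal-salt rats were lower. The difference was 0.93 (SE 0.17, limma adjusted p = 0.00253).

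The cryptochromes, which bind and block the activator pair, differed from each other. Cry2 ran from 7.76 to 8.19 on normal salt (median log2 value 7.91) and from 8.16 to 8.70 on high salt (median 8.52). Its difference was 0.56 (SE 0.09, limma adjusted p = 0.000763), with an overlap of rat 6 and the lowest CHS rat. Cry1 ran from 5.88 to 6.80 on normal salt and from 5.91 to 6.65 on high salt, broadly overlapping. Its difference was 0.13 (95% interval −0.16 to 0.42, limma adjusted p = 0.573).

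**Figure D1:**
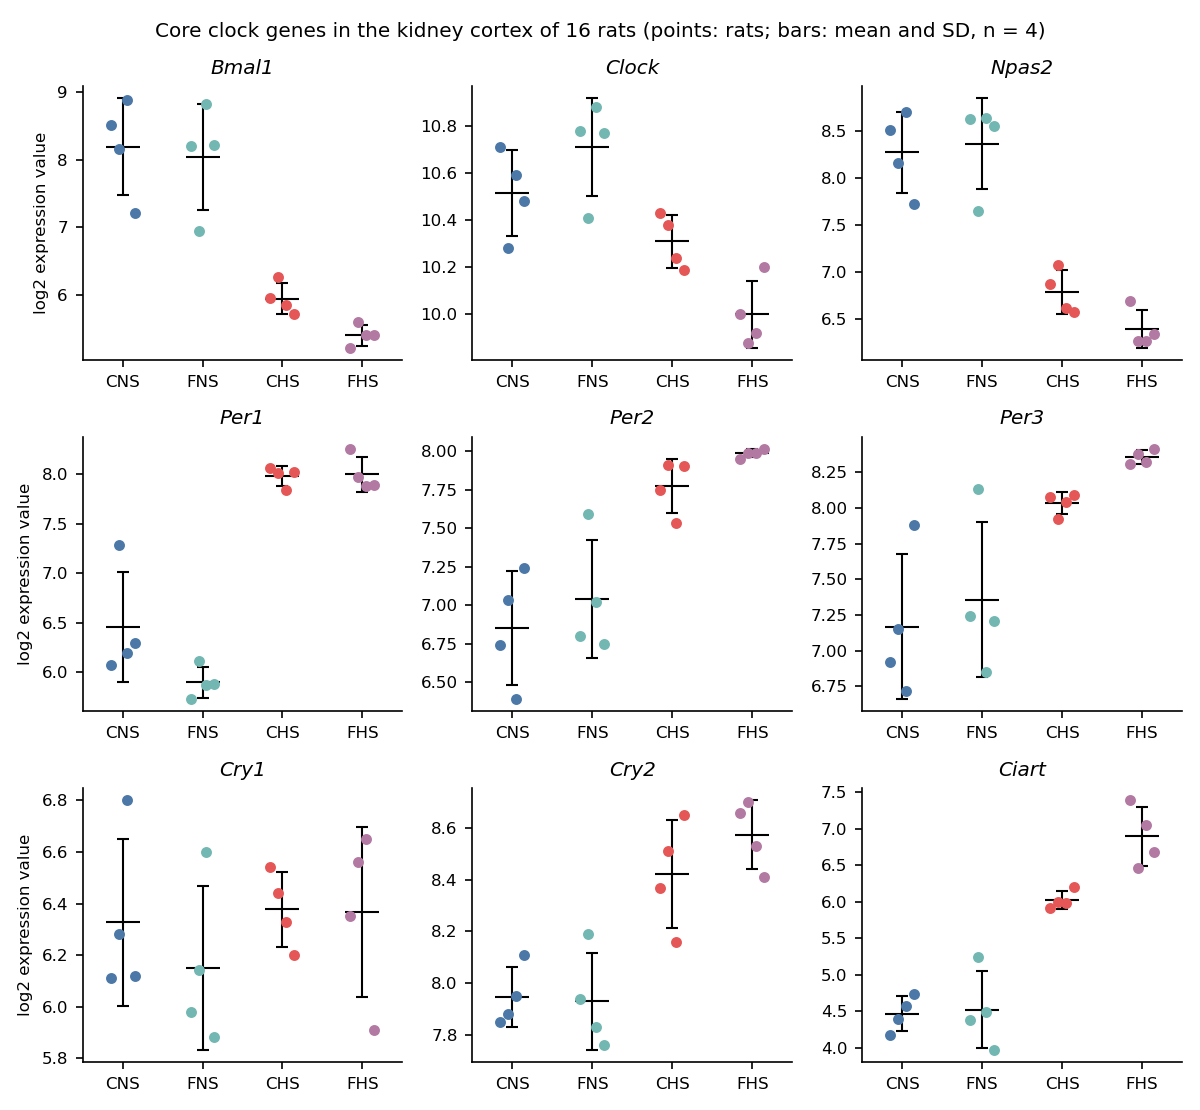
Log2 expression values of the 9 clock genes in each rat, with the group mean and SD (n = 4), for CNS, FNS, CHS and FHS; each panel has its own vertical scale. Bmal1, Npas2, Per1 and Ciart separate all 8 normal-salt rats from all 8 high-salt rats, whereas the Cry1 groups overlap.

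Within each drink the base diet pattern was present, with fewer calls in the water-drinking rats. Between CHS and CNS, 6 of 9 members were called against 3.29% of all TranscriptClusterIDs, with 2 lower and 4 higher (1.97% lower and 1.32% higher of all). Bmal1 differed by −2.25 (SE 0.35, limma adjusted p = 0.00385), Npas2 by −1.49, Per1 by 1.52, Ciart by 1.56 and Per2 by 0.92. Cry2 differed by 0.48 (SE 0.12), close to the threshold at a limma adjusted p of 0.0451, and this call was lost without any 1 of rats 1, 2, 3, 5, 9, 10, 12, 13 or 15. Leaving out the single rats gave adjusted p-values for Cry2 from 0.0293 to 0.129. Per3, at 0.87 (SE 0.24, limma adjusted p = 0.0653), was called only without rat 4 or rat 6 among the single rats left out, with adjusted p-values from 0.0201 to 0.178. Clock differed by −0.20 (SE 0.12, limma adjusted p = 0.411). The 4 CHS rats did not overlap the 4 CNS rats in 7 of 9 members, all but Clock and Cry1, against 11.7% of all TranscriptClusterIDs.

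Between FHS and FNS, 8 of 9 members were called against 5.36% of all, with 3 lower and 5 higher (2.63% lower and 2.73% higher of all). Ciart differed by 2.38 (SE 0.24, limma adjusted p = 0.000126), Per1 by 2.10, Npas2 by −1.97 and Bmal1 by −2.65. Clock differed by −0.71 (SE 0.12, limma adjusted p = 0.00461). Per3 differed by 1.00 (SE 0.24, limma adjusted p = 0.0290), a call lost without any 1 of rats 5, 7, 8, 13, 14 or 15, when adjusted p-values ran from 0.0571 to 0.0793. The FHS and FNS rats did not overlap in 8 of 9 members, all but Cry1, against 13.3% of all. In the test of any difference among the 4 groups, 8 of 9 members were called against 6.6% of all, Cry1 again being the exception (limma adjusted p = 0.787).

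No member passed the same test for fructose. On the normal-salt diet 0 of 9 were called, against 0% of all. At an unadjusted p under 0.05 only Per1 stood out, at −0.56 (SE 0.20), against 4.15% of all TranscriptClusterIDs, and its limma adjusted p was 1.00. That difference was −0.29 without rat 2, the highest CNS rat, with a smaller SE of 0.12. Bmal1 differed by −0.15 (95% interval −0.89 to 0.60) on normal salt and by −0.54 (95% interval −1.29 to 0.20) on high salt. Changes of moderate size stayed within these intervals, which rest on a spread shared by all 4 groups. For the high-salt difference of Bmal1 the SE was 0.35 in this shared fit and 0.14 on the 8 high-salt arrays alone. On the high-salt diet 0 of 9 were called, against 0.00273% of all. Ciart differed by 0.87 (SE 0.24, limma adjusted p = 0.281) and Clock by −0.31 (SE 0.12, limma adjusted p = 0.447), the only members at an unadjusted p under 0.05, against 9.62% of all.

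The individual values of some members were nevertheless apart by drink on the high-salt diet. All FHS rats were above all CHS rats for Per2, Per3 and Ciart, and below them for Bmal1, which is 4 of 9 members against 5.12% of all TranscriptClusterIDs. On the normal-salt diet no member separated FNS from CNS, against 3.12% of all. With limma on the 8 high-salt arrays alone, whose spread was smaller for these genes, 0 of 9 members passed, with adjusted p-values of 0.364 for Ciart, 0.448 for Bmal1 and 0.515 for Per3. At an unadjusted p under 0.05 that fit had 5 of 9 members (Ciart, Bmal1, Per3, Clock and Npas2), against 7.63% of all. Averaged over both base diets, 0 of 9 members were called for fructose, against 0.00273% of all. Ciart, at 0.46 (SE 0.17, limma adjusted p = 0.552), was the only member at an unadjusted p under 0.05, against 7.44% of all.

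Whether the fructose difference itself depended on base diet was tested as an interaction, which called 0 of 9 members and 0% of all. The estimates were 0.82 for Ciart (SE 0.33) and −0.51 for Clock (SE 0.17), both with a limma adjusted p of 0.808, and these were the only 2 members at an unadjusted p under 0.05, against 6.09% of all. Per1 was at 0.58 with a wider error (SE 0.28, limma adjusted p = 0.824).

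**Figure D2:**
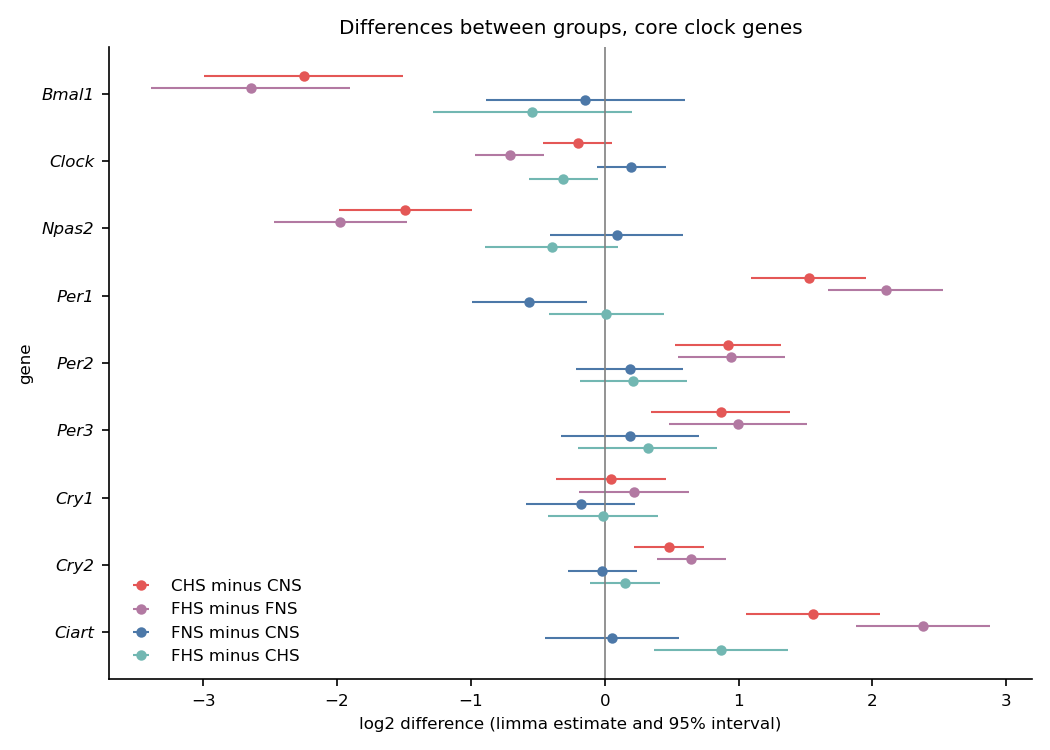
Log2 differences with 95% limma intervals for the 9 clock genes (vertical axis) in the base diet contrasts, CHS minus CNS and FHS minus FNS, and in the fructose contrasts, FNS minus CNS and FHS minus CHS. The base diet intervals of Bmal1, Npas2, Per1, Per2, Per3, Cry2 and Ciart exclude 0 with either drink, whereas most fructose intervals span it. All intervals use a spread shared by the groups.

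The activator and repressor arms were set against each other by centring each member on its mean over the 16 rats and averaging within an arm. The activators minus the repressors came to 1.25 ± 0.59 in CNS, 1.35 ± 0.75 in FNS, −0.96 ± 0.19 in CHS and −1.64 ± 0.14 in FHS (log2, SD, n = 4). By rat, the difference was 1.73, 0.99, 1.75 and 0.53 in CNS and 1.65, 0.23, 1.8 and 1.73 in FNS. It was −0.91, −0.77, −0.96 and −1.22 in CHS and −1.72, −1.64, −1.75 and −1.44 in FHS. All normal-salt rats were above 0 and all high-salt rats below it, the CNS and FNS rats overlapped, and the FHS rats were all below the CHS rats. The arms were averaged over the members, so no test was made on them.

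**Figure D3:**
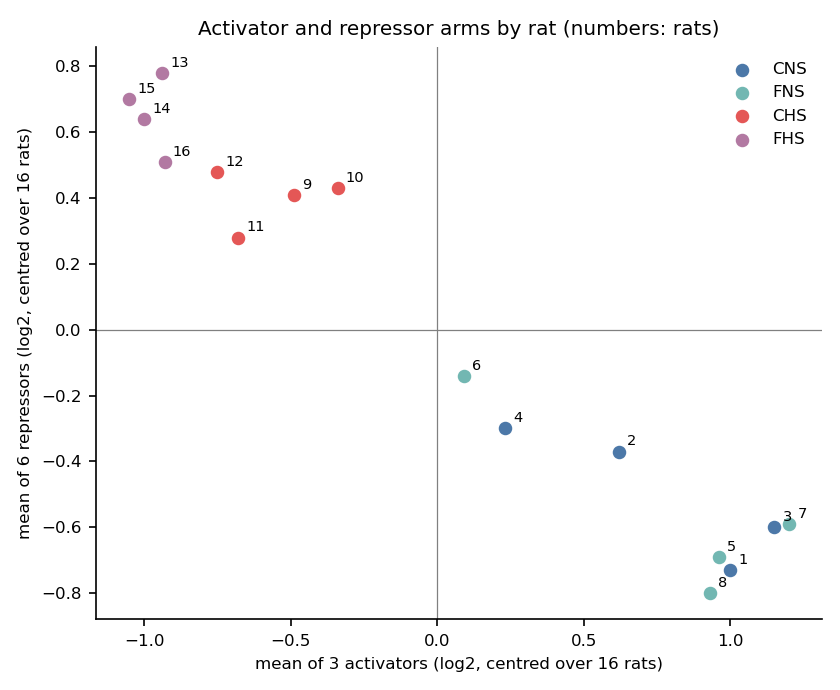
Mean of the 3 activators (horizontal axis) against the mean of the 6 repressors (vertical axis) in each rat, both as log2 values centred over the 16 rats, with rat numbers beside the points. The 8 normal-salt rats lie at the lower right and the 8 high-salt rats at the upper left, with rats 4 and 6 nearest to the high-salt rats.

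The members also differed in how far rats of a group lay apart. The within-group SD was larger on normal salt than on high salt in 8 of 9 members, with a median ratio of 2.10, against a median of 0.89 over all TranscriptClusterIDs, of which 40.9% had the larger SD on normal salt. For Bmal1 the SD was 0.75 on normal salt and 0.20 on high salt, and for Per3 it was 0.53 and 0.06. Cry2 was the exception, with 0.16 and 0.18. Single rats held part of the normal-salt spread. Rats 4 and 6 were the lowest normal-salt rats for Bmal1 and Npas2 and the highest for Per3, and rat 2 was the highest for Per1. The spreads were not tested, nor was the share due to these rats.

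Because the base diets formed separate clusters, the relation of Bmal1 to the other members was taken within each base diet (exact permutation test over all 40320 pairings of 8 rats, two-sided, adjusted over 16 relations). On normal salt, Per3 was lower in the rats with more Bmal1 (r = −0.994, rho = −0.929, exact permutation p = 0.000124 for r and 0.00223 for rho, adjusted 0.00198 and 0.0243). Leaving out rats 4 and 6, the farthest from the Bmal1 median, gave r = −0.964 over 6 rats. Npas2 followed Bmal1 (r = 0.938, rho = 0.905, exact permutation p = 0.00117 and 0.00456, adjusted 0.00933 and 0.0243) and Per2 ran against it (r = −0.839, rho = −0.857, exact permutation p = 0.00727 and 0.0107, adjusted 0.0233 and 0.0429). Both were weaker without rats 4 and 6, at r = 0.602 (exact permutation p = 0.181) and −0.393 (exact permutation p = 0.444). The 6 rats left span a narrower range of Bmal1, so how far these relations rest on rats 4 and 6 cannot be read from this. The other 5 members had adjusted exact permutation p-values for r from 0.0634 (Cry2) to 0.762 (Per1).

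On high salt, the CHS and FHS rats were themselves apart in Bmal1, so no test over the 8 rats was read for the members and r was taken on deviations from the group means. Over the 8 high-salt rats these gave r = −0.620 for Ciart, −0.471 for Per3, 0.289 for Npas2 and 0.335 for Per2, as descriptions with no test, so that Per2 had the opposite sign to that on normal salt. For Per3 the sign differed between the 4 CHS rats (r = −0.909) and the 4 FHS rats (r = 0.587), and for Npas2 it did too (0.971 and −0.861). For Ciart (−0.496 and −0.928) and Per2 (0.337 and 0.693) it did not. The difference between base diets in these relations was not tested.

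**Figure D4:**
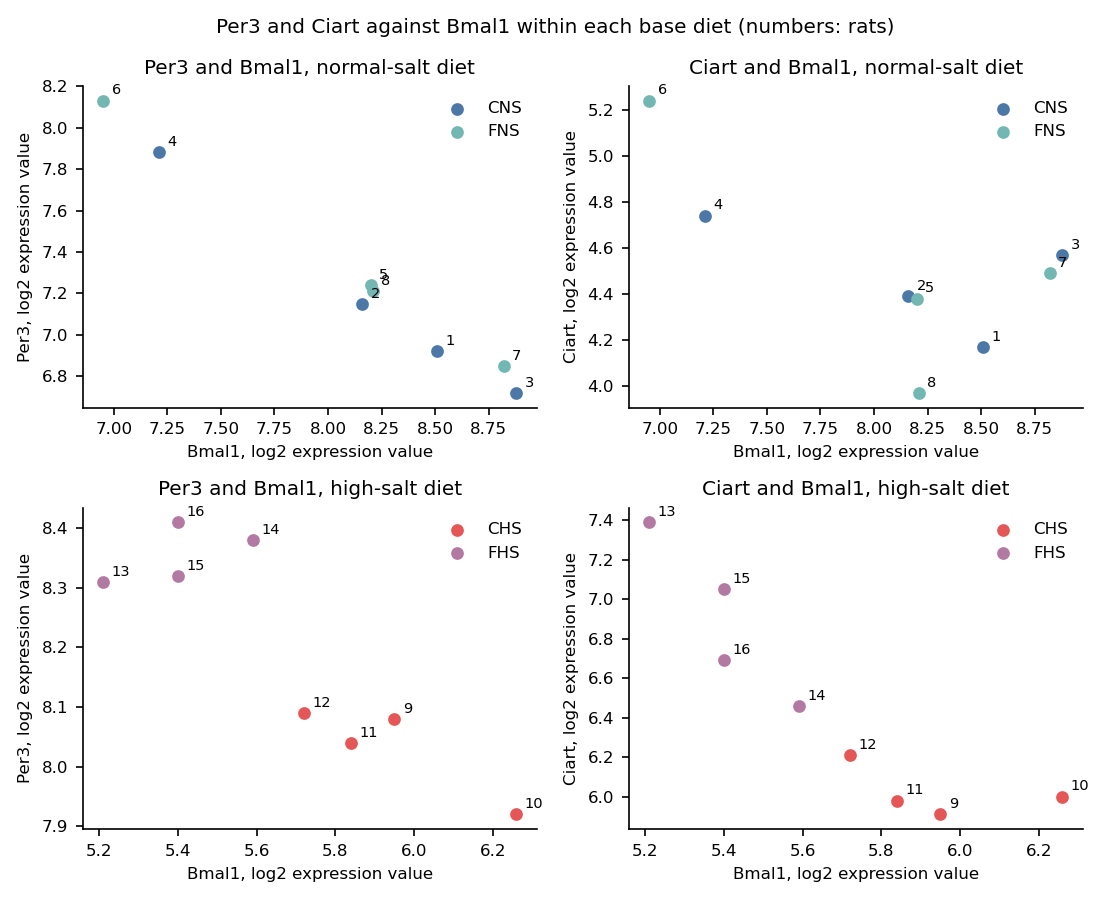
Per3 (left) and Ciart (right) against Bmal1, as log2 expression values, in the 8 normal-salt rats (top) and the 8 high-salt rats (bottom), with rat numbers. On normal salt the Per3 points fall along a line (r = −0.994), and on high salt the CHS and FHS rats form separate groups.

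Of 21 further clock genes listed by role, with earlier results of these data known, 16 were found. With both drinks averaged, 5 were higher and 2 lower on the high-salt chow, against 6.49% higher and 6.77% lower of all TranscriptClusterIDs, and the median difference was 0.17 against 0.02 for all. Of the D-box proteins, Dbp, an output activator, differed by 1.26 (SE 0.24, limma adjusted p = 0.00337) and Tef, its relative, by 0.97 (SE 0.10, limma adjusted p = 4.84e-05). Nfil3, which competes for D-boxes, fell by 0.34 (limma adjusted p = 0.0428). Tef and Dbp did not overlap between base diets, with 0.38 and 0.01 between the closest rats, against 2.46% of all TranscriptClusterIDs without overlap. For Dbp, rats 4 (11.43) and 6 (11.46) were the highest normal-salt rats.

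Of the other regulators, Usp2, a deubiquitinase with a rhythmic transcript, differed by 1.11 (SE 0.14), Wee1, a cell cycle kinase under clock control in mouse liver, by 0.71 (SE 0.12), and Bhlhe41, which encodes the repressor DEC2, by 0.54 (SE 0.09). Usp2 did not overlap between base diets either, with 0.22 between the closest rats. Gsk3b, a kinase that acts on clock proteins, fell by 0.22 (SE 0.07, limma adjusted p = 0.0411). Nr1d1, which encodes REV-ERBα, a repressor of Bmal1, was not called at 0.47 (SE 0.20, limma adjusted p = 0.145). Also not called were Bhlhe40, which encodes the repressor DEC1, at −0.29 (limma adjusted p = 0.0768), Rora, which encodes an activator at ROR elements, at 0.22 (limma adjusted p = 0.0838), and Btrc, which encodes a ubiquitin ligase subunit that acts on period proteins, at −0.12 (limma adjusted p = 0.177).

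By drink, 3 of the 16 were called in the water-drinking rats, all higher (Tef, Usp2 and Wee1), against 3.29% of all. In the fructose-drinking rats 5 were called, all higher (Tef, Usp2, Wee1, Dbp and Bhlhe41), against 5.36% of all. Bhlhe41 differed by 0.16 (SE 0.13, limma adjusted p = 0.569) with water and by 0.92 (SE 0.13, limma adjusted p = 0.00137) with fructose, and the interaction had the lowest adjusted p of the list without passing (limma adjusted p = 0.684). None of the 16 was called in any of the fructose contrasts. The smallest unadjusted p in the list was that of Bhlhe41 on normal salt, at −0.57 (SE 0.13, limma adjusted p = 1.00), and of Usp2 on high salt, at 0.31 (SE 0.20, limma adjusted p = 0.635).

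**Figure D5:**
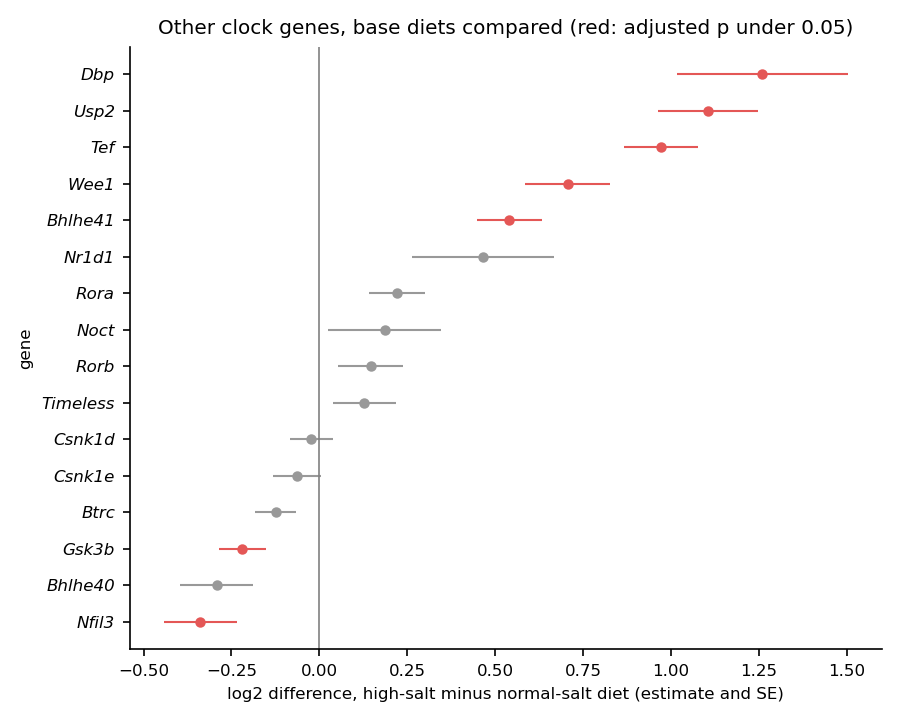
Log2 difference with SE between the high-salt and normal-salt diets, both drinks averaged, for the 16 further clock genes found on the array; red points passed an adjusted p of 0.05. Dbp, Usp2, Tef, Wee1 and Bhlhe41 lie to the right of 0, and Nfil3 and Gsk3b to the left.

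Gene patterns most like those of Bmal1 and Per2 were ranked by Pearson's r over the 16 rats among 18502 TranscriptClusterIDs with 1 symbol, as a description, since all share the base diet split. The 5 with the highest r to Bmal1 were Ypel2 (0.968), Creb3l1, Rad21, Leo1 and Rnf125 (0.944), and the 5 with the lowest were Tef (−0.976), Usp2, Nat8f3, Herpud1 and Dbp (−0.950). For Per2 the highest were Tef (0.946), Usp2, Tnfrsf21, Errfi1 and Rapgef3 (0.922), and the lowest Ypel2 (−0.951), Rnf125, Drosha, Leo1 and Arl2bp (−0.928). Within the 8 normal-salt rats all 10 genes named for Bmal1 kept the sign of r, from 0.635 (Leo1) to 0.960 (Rnf125) and from −0.780 (Herpud1) to −0.963 (Dbp). Within the 8 high-salt rats, where CHS and FHS were pooled, 8 kept it, with 0.849 for Ypel2 and −0.876 for Usp2, whereas Rnf125 was at −0.119 and Nat8f3 at 0.127.

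By the Characteristic Direction, the study's multivariate method, a gene's value in a vector of all genes is read against 0.00522, the value each would have if all contributed equally. On linear values 4 of 9 members exceeded it in size for base diet in water-drinking rats (6.16% of all), 7 in fructose-drinking rats (6.5% of all), and 1, Clock, for fructose on normal salt (6.07% of all) and on high salt (6.22% of all). Clock ranked 399 of 36685 for fructose on normal salt and 547 on high salt, with opposite signs (0.0207 and −0.0156). The linear scale weights genes by level, and on log2 values Bmal1 ranked 6 with water and 5 with fructose in the base diet vectors. On log2 values Clock ranked only 7120 for fructose on normal salt (0.0058) and 6038 on high salt (−0.0064). There 23.3% and 23.4% of all exceeded 0.00522 in size.

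Genes of other lists moved with base diet as well, in a contrast that called 13.3% of all TranscriptClusterIDs, and their part in the clock gene differences was not tested. Of 8 glucocorticoid-responsive genes, 5 rose on high salt with both drinks averaged and none fell, led by Errfi1 at 0.79 and Tsc22d3 at 0.78. The summed linear level of this list ran from 5627 to 8900 in CNS, 6699 to 8527 in FNS, 10189 to 11834 in CHS and 9613 to 11009 in FHS, so that the base diets did not overlap. Of 5 measured heat- and cold-responsive genes 4 rose. The sum of the 5 ran from 11068 to 12471 in CNS, 11031 to 11619 in FNS, 13817 to 14468 in CHS and 12004 to 13998 in FHS. The base diets did not overlap within either drink, although CNS and FHS did. Of 8 immediate early genes, 0 were called by limma.

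Cell type markers were counted in the same contrast, with both drinks averaged and 13.3% of all TranscriptClusterIDs called. None of 7 markers of the early proximal tubule, the main cell type, was called for base diet, with a summed level from 34890 to 40556 on normal salt and from 33704 to 42804 on high salt. Of 4 distal convoluted tubule markers, 0 were called, and of 7 collecting duct markers 2 rose, Aqp2 by 0.86 and Scnn1g by 0.35, and 1 fell, Atp6v1g3 by 0.43. The collecting duct sum ran from 3343 to 3784 in CNS, 2842 to 3588 in FNS, 3674 to 4338 in CHS and 3650 to 4255 in FHS. In each of 5 further lists 1 marker fell, namely Cdh5 (of 3 endothelial markers) by 0.63, Cx3cr1 (of 5 of macrophages) by 0.49, Wt1 (of 3 of podocytes) by 0.41, Kcnj1 (of 4 of the thick ascending limb) by 0.38 and Slc5a1 (of 4 of the late proximal tubule) by 0.65. Of 5 fibroblast and smooth muscle markers Col3a1 rose by 0.27 and Myh11 fell by 0.40. By drink, Cx3cr1 (−0.79), Myh11 (−0.69) and Wt1 (−0.46) were called only between CHS and CNS, and Col3a1 (0.45) only between FHS and FNS. Between CHS and CNS, 2 of 3 endothelial markers were called, Cdh5 (−0.66) and Ehd3 (−0.64), against 3.29% of all. The endothelial sum ran from 1973 to 2247 in CNS, 1397 to 1968 in FNS, 1347 to 1631 in CHS and 1368 to 1966 in FHS. It was apart between CNS and CHS and overlapped between FNS and FHS. The macrophage sum ran from 4126 to 5194 in CNS, 3509 to 4520 in FNS, 3669 to 4445 in CHS and 4447 to 5577 in FHS. The part of these markers in the clock gene differences was not tested. Array medians ran from 5.25 to 5.34 in the 12 arrays outside FHS and from 5.33 to 5.44 in FHS. With 4 arrays a group, small differences were beyond the precision of the design.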

How the data were processed

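Superficial kidney cortex RNA of 16 rats was hybridised to Affymetrix RaGene-2_0-st arrays. The authors deposited log2 values, summarised per TranscriptClusterID in Expression Console by robust multi-array averaging with median polish; no scanner files were used here. RMA places all arrays on a shared scale and compresses low signals, so fold differences of dim genes can be understated. Symbols came from the platform annotation.

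Values were tested with limma 3.58.1 (R 4.3.3) on group means of all 16 arrays, with Benjamini-Hochberg adjustment over 36685 TranscriptClusterIDs, after the code was tested on simulated data. The other steps ran in Python 3.11.15 with scipy 1.17.1. Named genes were all members, from the further clock genes those called and up to 4 others with the smallest p, and the 5 highest and 5 lowest r to Bmal1 and to Per2. The members and lists were chosen with earlier results of these data known. Relations to Bmal1 were planned over all 16 rats; since the base diets formed clusters, they were computed within each base diet. Alternatives were a filter on dim TranscriptClusterIDs, quantile normalization, median centring, an intensity trend, the arrays of each contrast alone, the methods' ANOVA, log2 values for the Characteristic Direction and each rat left out.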

Additional observations from a re-analysis of the deposited data

Results flagged for a closer look

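Of 100 sets of 4 rats tested for a rat far from the other 3, 6 held one, and chance gives about 1 in 20. In FNS, rat 6 stood apart for Npas2 (7.65, the others 8.56 to 8.64), Tef (7.88, the others 7.28 to 7.36) and Wee1 (7.87, the others 7.33 to 7.35), each time towards the high-salt values. In CHS, rat 12 stood apart for Nfil3 (5.01, the others 4.54 to 4.6). In FHS, rat 14 stood apart for Nfil3 (5.08, the others 4.8 to 4.82) and for Dbp (11.71, the others 11.87 to 11.90).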

How the results depend on the processing

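For base diet averaged, all 9 members kept direction and side of the threshold under the alternatives run for it. These were the filter on dim TranscriptClusterIDs, quantile normalization, median centring, an intensity trend and each rat left out. The arrays of each contrast alone and the methods' ANOVA were run only for contrasts between 2 groups, not for base diet averaged. After Benjamini-Hochberg the methods' ANOVA called 1 of 9 members for base diet with water, 2 of 9 with fructose and 0 of 9 for fructose on high salt (5 of 9 unadjusted), and the arrays of the contrast alone called 5 and 7 for base diet. Counts over all TranscriptClusterIDs moved too. For base diet they were 533 with water and 733 with fructose on the arrays of the contrast alone, 400 and 214 by the adjusted ANOVA, and 6148 and 6852 by the unadjusted ANOVA (1208 and 1968 as reported). For fructose on high salt (1 as reported) they were 22 without dim TranscriptClusterIDs, 3 with an intensity trend, 0 on its 8 arrays alone, 0 by the adjusted ANOVA and 2828 by the unadjusted one. The unadjusted ANOVA gave 1887 for fructose on normal salt (0 as reported), and median centring gave 0 for fructose averaged (1 as reported).

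Leaving out 1 rat gave 562 to 1468 calls for base diet with water (lowest without rat 1), 868 to 2186 with fructose (lowest without rat 8), 3854 to 5111 averaged, 1618 to 2590 for any difference, 0 to 4 for fructose on high salt (0 without rat 13), 0 to 4 for fructose averaged and 0 to 1 for the interaction, with 0 throughout for fructose on normal salt. The arm difference ran from −2.79 to −2.52 for base diet, −0.14 to 0.48 for fructose on normal salt and −0.76 to −0.61 for fructose on high salt. Signs turned only in uncalled values. For fructose on normal salt the ranges were −0.47 to 0.22 for Bmal1, −0.19 to 0.24 for Ciart, −0.106 to 0.0395 for Cry2, −0.0681 to 0.43 for Per3 and −0.10 to 0.33 for Npas2. For fructose on high salt they were −0.0715 to 0.0522 for Per1 and −0.11 to 0.14 for Cry1, for the interaction −0.11 to 0.39 for Per3 and −0.10 to 0.21 for Per2, and for base diet with water −0.0245 to 0.21 for Cry1. Median centring turned Per1 for fructose on high salt to −0.0593, the Per2 interaction to −0.0263, and the r of Bmal1 and Per1 pooled over the high-salt rats to 0.095 (−0.164 before). On log2 values the Characteristic Direction put 2 of 9 members above the equal share for fructose on normal salt (23.3% of all), 5 for fructose on high salt (23.4% of all) and 7 for base diet with water (22.4% of all). The cause of these shifts was not tested. No paired analysis was possible because each rat has a number of its own.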
